A study of Mus musculus with 24 samples.

Results

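Genes of cholesterol and fatty acid synthesis were followed in cultured mouse neurons that were silenced and then depolarized with KCl. The set of 31 genes was given by name: the enzymes of the mevalonate pathway and of the sterol branch, the proteins that switch them on and off, a sterol carrier, and enzymes of fatty acid and glycerolipid synthesis. Of these, 30 had a probe set with a single gene symbol on the array, each taken at its brightest such probe set by the mean of all arrays, out of 18194 genes treated likewise and 12378 genes tested. Acat2 was not analysed here. The lowest value of any member on any array, a log2 intensity of 6.95 for Srebf1, lay above the highest array median of 6.92, so the filter on dim probe sets did not depend on 1 group for any of the 30.

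Cells were taken at embryonic day 14 from Npas4 knockout (KO) mice and their wild-type (WT) littermates of the C57Bl/6 strain. They came from the medial ganglionic eminence (MGE), the embryonic source of many cortical inhibitory interneurons, or from cortex (CTX). The labels give 10 days in culture. Before depolarization all 12 groups, including those at 0 h, had been silenced overnight from day 9 with TTX, a sodium channel blocker, and AP-5, an NMDA receptor blocker. KCl at 55 mM was applied for 0, 1 or 6 h, which gave MGE KO, MGE WT, CTX KO and CTX WT cultures at each time with 2 arrays per group. The labels do not say whether the 2 arrays of a group came from separate cultures or animals, so the p-values measure only the spread between these arrays. Npas4 encodes a transcription factor induced by neuronal activity, and the KO allele was not restricted to a cell type by anything in the labels.

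Cells make cholesterol from acetyl-CoA. The mevalonate steps end in farnesyl diphosphate, squalene is then formed and closed to lanosterol, and a chain of sterol steps leads to cholesterol. The transcription factors SREBP-2 (Srebf2) and SREBP-1 (Srebf1) turn on these genes and those of fatty acid synthesis. They are held in the endoplasmic reticulum by SCAP (Scap) and the INSIG proteins (Insig1 and Insig2) when sterols are plentiful. Neurons in culture make part of their own cholesterol, and adult neurons are thought to rely in large part on cholesterol from astrocytes.

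RefSeq promoter windows (GRCm38.p6, from 250 bases before to 50 after the annotated start) existed for 24 of the 31 genes. The stretches below are shown because they belong to an early enzyme of the pathway and to 5 members that rose with KCl. Capitals mark every match, on either strand, to the motifs searched. All 6 stretches lie before the annotated start and run 5′ to 3′ on the gene's strand.

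Hmgcs1, chr13:119690201-119690311, plus strand: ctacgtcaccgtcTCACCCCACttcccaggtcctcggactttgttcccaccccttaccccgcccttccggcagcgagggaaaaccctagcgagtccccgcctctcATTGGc

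Idi1, chr13:8885506-8885605, plus strand: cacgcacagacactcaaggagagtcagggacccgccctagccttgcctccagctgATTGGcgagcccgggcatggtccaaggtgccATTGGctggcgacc

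Cyp51, chr5:4104698-4104797, minus strand: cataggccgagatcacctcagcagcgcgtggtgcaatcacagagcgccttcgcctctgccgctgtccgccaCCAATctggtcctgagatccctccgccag

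Lss, chr10:76531505-76531604, plus strand: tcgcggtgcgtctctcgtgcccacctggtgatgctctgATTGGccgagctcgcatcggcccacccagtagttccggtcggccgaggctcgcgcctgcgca

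Sc5d, chr9:42264301-42264410, minus strand: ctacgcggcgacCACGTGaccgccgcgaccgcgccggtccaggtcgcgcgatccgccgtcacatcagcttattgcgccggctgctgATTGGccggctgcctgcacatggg

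Insig1, chr5:28071302-28071411, plus strand: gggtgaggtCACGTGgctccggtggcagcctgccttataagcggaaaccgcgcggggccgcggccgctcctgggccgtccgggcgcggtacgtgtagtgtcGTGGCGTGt

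The 5 letters CCAAT, the core bound by the factor NF-Y, were in the window of 19 of these 24 genes (79.2%) and of 43% of the 10016 tested genes with a window. They were in 13 of the 14 mevalonate and sterol enzymes that had a window. TCACNCCAC, a form of the sterol regulatory element, was found in 1 of the 24, Hmgcs1, against 1.37% of tested genes. Its shorter form CACNCCAC, which overlaps it, was in 3 of 24 (12.5%) against 7.57%, and on the reverse strand this is the match near the end of the Insig1 stretch. CACGTG was in 5 of 24 (20.8%) against 11.6%, among them Sc5d and Insig1. TGANTCA, the AP-1 site, was in 1 of 24 (4.17%), Dhcr7, against 5.82%, and TGACGTNA, the cAMP response element, was in 0 of 24 against 5.66%. These are matches of letters within the windows, and binding was not measured.

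Values are log2 intensities, and differences between groups are log2 changes with a standard error (SE), from a limma fit of 12 group means to all 24 arrays. A gene was called when its adjusted p, over all 12378 genes, was under 0.05. Levels of different members were not set against each other. The summed marker intensities given further below add linear values over genes, so the brightest probe sets weigh most in them. With 2 arrays a group, lack of overlap was common over all genes. Both 6 h arrays lay above both 0 h arrays for 21.7% to 26.5% of genes, and below for 34.2% to 44.3%. At 1 h this was 7.29% to 15.6% above and 10.2% to 20.9% below. At 0 h the MGE arrays lay above the CTX arrays for 44.3% (KO) and 46% (WT), and below for 37% and 37.1%. Between the 2 arrays of each group the correlation over the genes tested was 0.965 to 0.992, except in MGE WT at 0 h, where it was 0.951 and the arrays differed by over 2-fold at 1507 genes. Npas4 at 1 h was 7.35 and 7.0 in MGE KO against 12.04 and 11.20 in MGE WT, and 6.80 and 6.85 in CTX KO against 12.03 and 11.77 in CTX WT cultures. At 6 h it was 7.07 and 6.80 in MGE KO against 9.32 and 8.59 in MGE WT, and 7.76 and 7.82 in CTX KO against 11.73 and 11.84 in CTX WT cultures. The KO arrays lay below the WT arrays at both times. At 0 h all 8 arrays read 5.35 to 5.94, below the median of their array, so no change from 0 h is given, and the part of the gene the probe set reads was not analysed here.

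After 1 h of KCl, a small group of sterol genes was higher in MGE cultures. In MGE WT cultures 4 of 30 members rose and 0 fell, against 0.388% of all genes tested that rose and 0.186% that fell (0.574% in either direction). They were Idi1, which makes dimethylallyl diphosphate, Sc5d, a late sterol desaturase, Insig1, which retains SCAP, and Stard4, which carries cholesterol between membranes. In MGE KO cultures 4 of 30 rose and 0 fell, against 0.323% and 0.121% of all genes. These were Idi1, Cyp51, which demethylates lanosterol, Sc5d and Stard4. The median change of the 30 members was 0.07 in MGE WT and 0.08 in MGE KO cultures, against -0.01 over all genes in both.

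**Figure D1:**
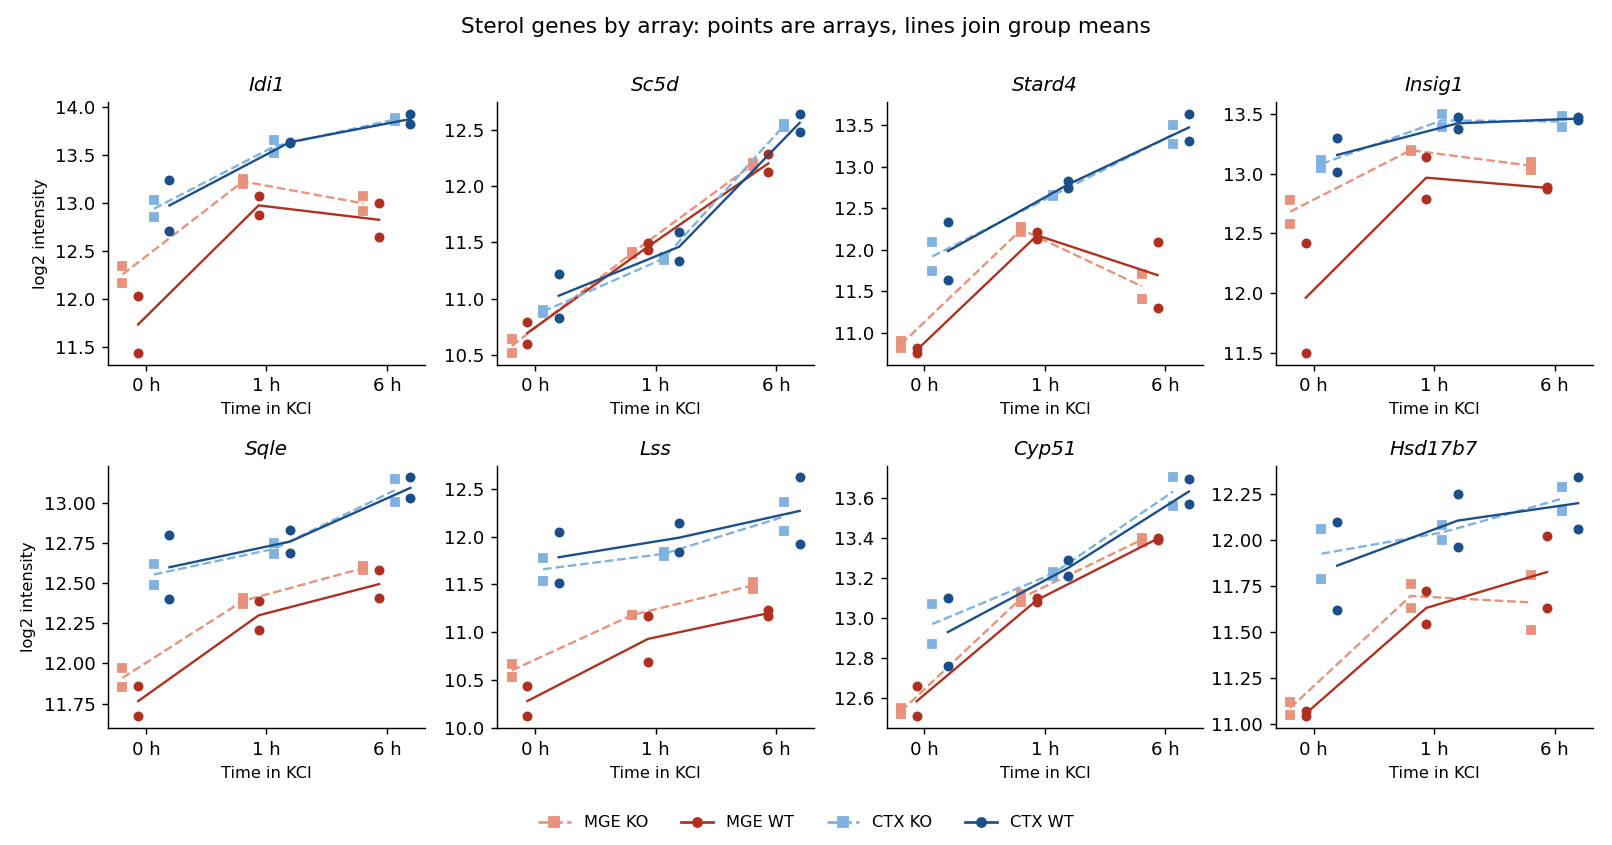
Log2 intensity (vertical axis) of 8 sterol genes by time in KCl (horizontal axis, evenly spaced), with 1 point per array and lines through the means of 2 arrays, for MGE KO, MGE WT, CTX KO and CTX WT cultures. Stard4 reaches 12.13 to 12.27 in MGE arrays at 1 h and 11.30 to 12.09 at 6 h, while its CTX arrays reach 13.27 to 13.64 at 6 h, and both MGE WT arrays of Insig1 at 0 h lie below those of the other 3 series.

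Idi1 in MGE KO cultures read 12.17 and 12.34 at 0 h, then 13.20 and 13.25 at 1 h, then 12.92 and 13.07 at 6 h. In MGE WT cultures it read 12.03 and 11.44 at 0 h, then 12.88 and 13.07 at 1 h, then 12.65 and 13.00 at 6 h. The 0 h arrays lay below all arrays at 1 h and 6 h in both genotypes. At 1 h this was 1.24 ± 0.19 in MGE WT cultures, 2.35-fold (adjusted p = 0.0052), and 0.97 ± 0.19 in MGE KO cultures (adjusted p = 0.038). The other probe set of Idi1 gave 1.06 ± 0.19 in MGE WT cultures at 1 h.

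Stard4 had the highest change of the 30 members at 1 h in both MGE genotypes. It read 10.90 and 10.82 at 0 h, then 12.22 and 12.27 at 1 h, then 11.41 and 11.71 at 6 h in MGE KO cultures. In MGE WT cultures it read 10.82 and 10.76 at 0 h, then 12.13 and 12.22 at 1 h, then 11.30 and 12.09 at 6 h. The 1 h arrays lay above all other MGE arrays. The change at 1 h was 1.38 ± 0.24 in MGE KO (adjusted p = 0.013) and also 1.38 ± 0.24 in MGE WT cultures, 2.61-fold (adjusted p = 0.012). With the mean of the genotypes, a comparison added after the data had been seen, the 6 h level of Stard4 differed from its 1 h level in MGE cultures by -0.58 ± 0.17 (adjusted p = 0.019). Its 2 other probe sets were also called at 1 h in the averaged comparison, at 1.52 ± 0.16 and 1.91 ± 0.22, but from 1 h to 6 h they had -0.45 ± 0.16 (adjusted p = 0.07) and 0.43 ± 0.22 (adjusted p = 0.21), and the mean of the 3 had -0.20 (adjusted p = 0.42). The drop of Stard4 after 1 h in MGE cultures thus depends on the probe set.

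Sc5d in MGE KO cultures read 10.64 and 10.52 at 0 h, then 11.40 and 11.41 at 1 h, then 12.20 and 12.18 at 6 h. In MGE WT cultures it read 10.60 and 10.79 at 0 h, then 11.49 and 11.43 at 1 h, then 12.12 and 12.28 at 6 h. The 3 times did not overlap in either genotype, and each later time was higher. The change at 1 h was 0.82 ± 0.13 in MGE KO (adjusted p = 0.0058) and 0.76 ± 0.13 in MGE WT cultures, 1.70-fold (adjusted p = 0.0085). With the mean of its 3 probe sets it was 0.74 in MGE KO (adjusted p = 0.65) and 0.91 in MGE WT (adjusted p = 0.23), and 0.83 with the genotypes averaged (adjusted p = 0.032).

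Of the 5 genes called at 1 h, Insig1 showed the widest gap between the 2 arrays of MGE WT at 0 h. It was 13.20 and 13.19 at 1 h against 12.58 and 12.78 at 0 h in MGE KO cultures, and 12.79 and 13.14 at 1 h against 12.42 and 11.50 at 0 h in MGE WT cultures. The 1 h arrays lay above the 0 h arrays in both genotypes, and replicate 2 of MGE WT at 0 h was the lowest of all 24 arrays. The change in MGE WT cultures was 1.00 ± 0.21 (adjusted p = 0.046), but 0.55 without that array (adjusted p = 0.37) and 1.46 without replicate 1 of the same group (adjusted p = 0.00017). In MGE KO cultures it was 0.52 ± 0.21 (adjusted p = 1).

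Averaging the genotypes, again a comparison added after the data had been seen, 7 of 30 members rose at 1 h in MGE cultures and 0 fell, against 0.897% and 0.784% of all genes. Besides Idi1 (1.1), Stard4 (1.38), Sc5d (0.79) and Insig1 (0.76), these were Hsd17b7 (0.59), a sterol ketoreductase, Cyp51 (0.54) and Sqle (0.51), the squalene epoxidase. Lss, which closes squalene epoxide to lanosterol, had 0.61 ± 0.16 and did not pass (adjusted p = 0.09). Of the 7, Idi1, Cyp51, Sc5d and Stard4 were called in all 8 fits that left out 1 array, Sqle in 7, Insig1 in 4 and Hsd17b7 in 2. Without replicate 2 of MGE WT at 1 h these 4 were the ones left, and Insig1 was 0.67, Hsd17b7 0.55 and Sqle 0.46. None of the 7 fatty acid enzymes was called at 1 h in MGE KO or MGE WT cultures, and 0 of them had an unadjusted p under 0.05.

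The 1 h calls in single genotypes rested on few arrays. The MGE WT count of 4 became 6 without replicate 1 of MGE WT at 0 h, when 14.6% of all genes were called, 1 without replicate 2 of that group, 1 without replicate 1 of MGE WT at 1 h and 0 without replicate 2 of it. Without replicate 2 of MGE WT at 0 h, Idi1 was 0.94 (adjusted p = 0.084) and Stard4 1.35 (adjusted p = 0.12) in MGE WT cultures, and Hsd17b7 with the genotypes averaged was 0.58 (adjusted p = 0.097). The MGE KO count of 4 became 1 without replicate 1 of MGE KO at 0 h, and 0 without replicate 2 of that group or without either array of MGE KO at 1 h. The log2 changes of Stard4 over these fits stayed between 1.34 and 1.43.

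The choice of probe set changed the result for Hmgcs1, which makes HMG-CoA and has 5 probe sets. Its brightest, the one used here, read 14.26 and 14.25 at 1 h against 14.16 and 14.14 at 0 h in MGE KO, and 14.19 and 14.19 against 14.11 and 14.10 in MGE WT cultures, a change of 0.10 ± 0.08 in KO and 0.08 ± 0.08 in WT without a call. Its dimmest, with a mean of 10.37, rose at 1 h by 2.26 ± 0.15 in MGE KO and 2.28 ± 0.15 in MGE WT, and by 1.85 ± 0.15 in CTX KO and 1.94 ± 0.15 in CTX WT cultures, with adjusted p from 7.4e-07 to 6.6e-06 over all 34958 single-symbol probe sets, which is also how other probe sets were tested throughout. The 3 others had changes of -0.04 to 0.76 at 1 h in these cultures and were not called. The brightest, with a mean of 14.34, lay at the 99.9 percentile of the genes tested, and saturation of its signal was not tested. With the mean of the 5 probe sets Hmgcs1 was called at 1 h in MGE KO (0.63, adjusted p = 0.021) and MGE WT cultures (0.70, adjusted p = 0.0084).

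In CTX cultures, 0 of 30 members passed at 1 h in KO or WT, although 4 and 5 had an unadjusted p under 0.05. The shares of all genes at that unadjusted p are not given here, so such counts in this paragraph are not a result about the members. Over all genes 1.1% were called in CTX KO and 0.864% in CTX WT cultures at 1 h, in either direction. With the genotypes averaged, 3 of 30 rose (1.68% of all genes rose) and 0 fell (1.34%): Stard4 by 0.77 ± 0.17, Idi1 by 0.66 ± 0.13 and Sc5d by 0.45 ± 0.09, with adjusted p of 0.02, 0.013 and 0.01. The direction for Sc5d depends on the probe set, since its 2 others had -0.20 and -0.19 without a call and the mean of the 3 had 0.02 (adjusted p = 1). With the replicate number as a block Cyp51 was called as well, at 0.29 (adjusted p = 0.026). Leaving out 1 array of CTX WT at 0 h (replicate 1) or of CTX KO at 1 h (replicate 1) brought this count to 0, with Stard4 at 0.60 and 0.77. Stard4 lost its call in 6 of the 8 fits that left out 1 array, Idi1 in 4 and Sc5d in 3, with Idi1 at 0.53 to 0.66 and Sc5d at 0.35 to 0.44 where lost. The MGE minus CTX difference in the 1 h response passed for 0 of 30 members (0.218% of all genes in either direction). It was 0.62 ± 0.24 for Stard4, 0.45 ± 0.21 for Insig1, 0.44 ± 0.19 for Idi1 and 0.34 ± 0.13 for Sc5d, each with an adjusted p of 1, and 7 members had an unadjusted p under 0.05. Without replicate 1 of MGE WT at 0 h the difference for Insig1 passed, at 0.68 (adjusted p = 0.038).

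**Figure D2:**
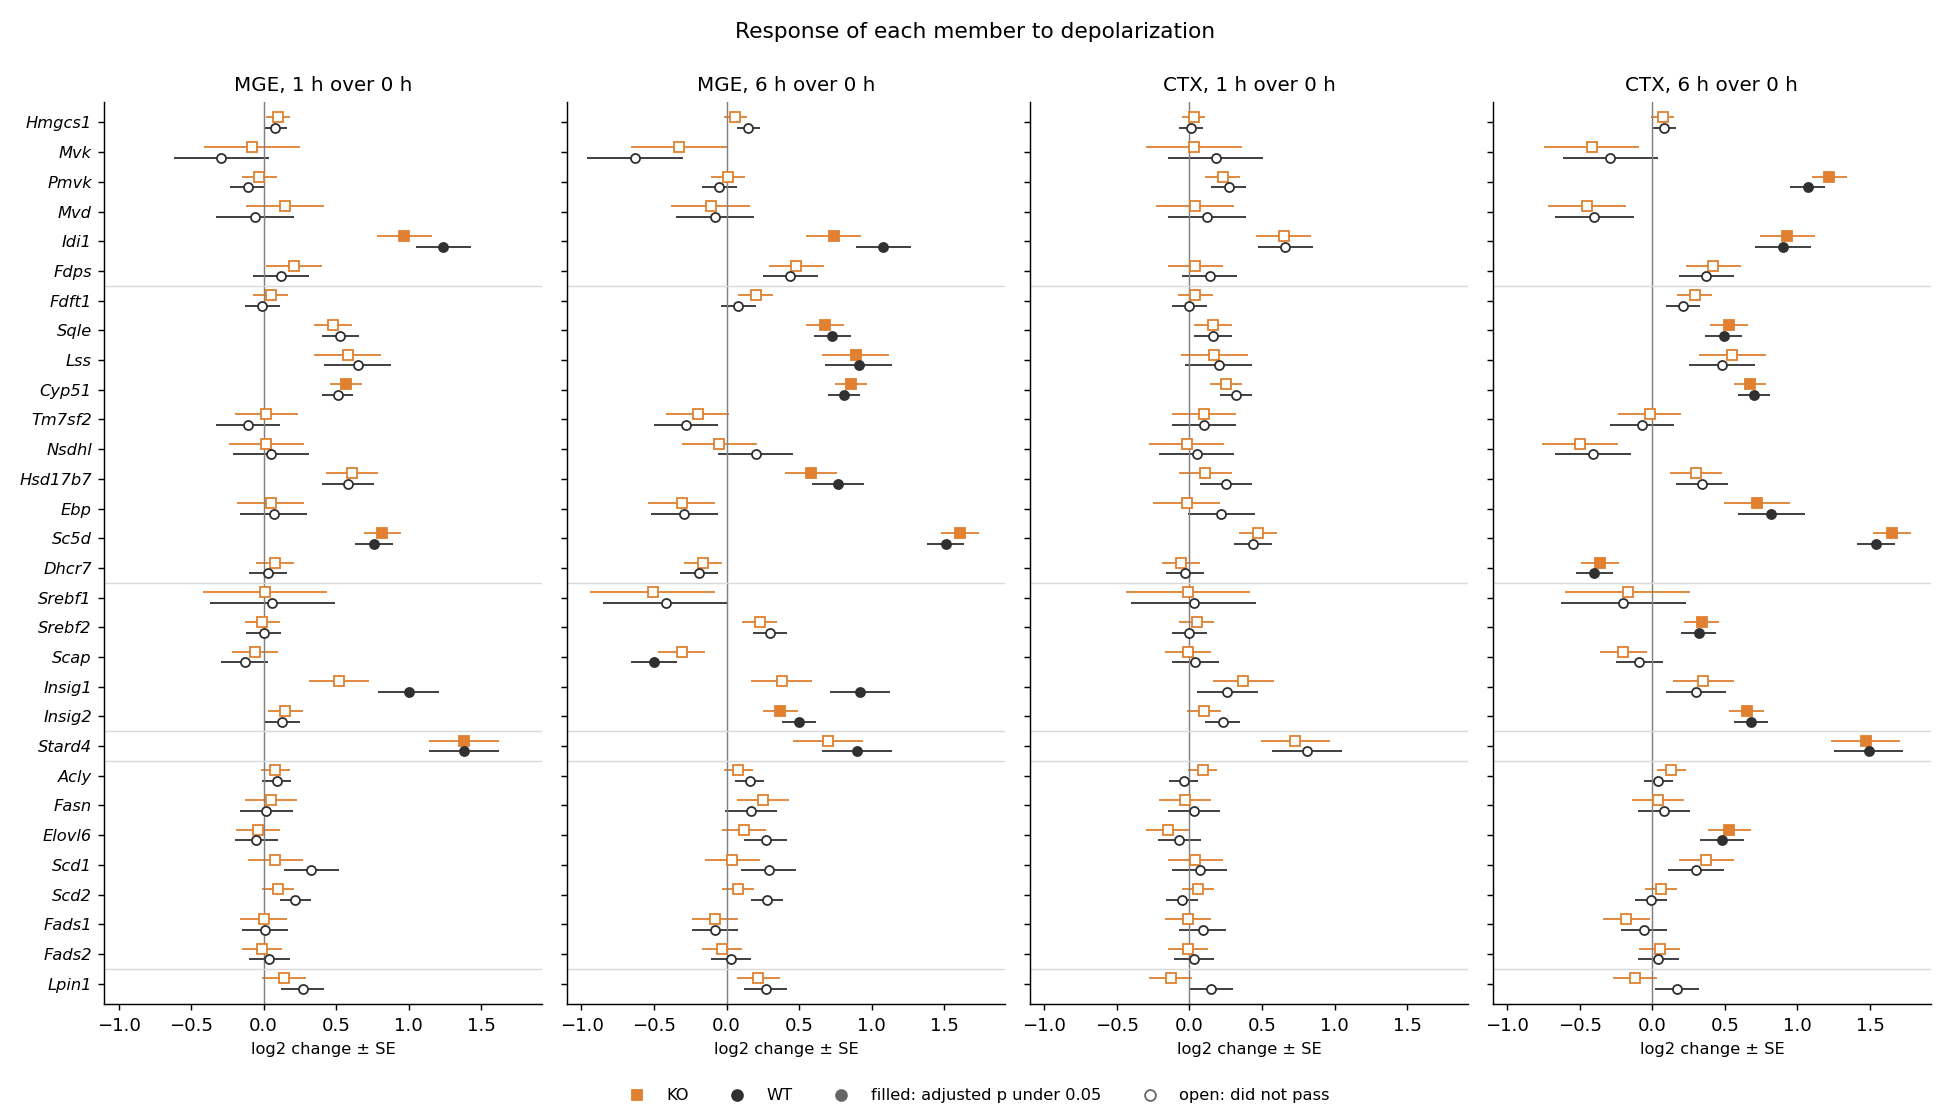
Log2 change ± SE (horizontal axis) of each of the 30 members, grouped by role from mevalonate steps at the top to Lpin1 at the bottom, for KO (squares) and WT (circles), at 1 h and 6 h over 0 h in MGE and CTX cultures. Filled symbols passed at an adjusted p under 0.05. Idi1 and Sc5d have filled symbols at 1 h and 6 h in MGE and at 6 h in CTX cultures in both genotypes, and Elovl6 at 6 h in CTX cultures is the one fatty acid enzyme with any.

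At 6 h more members passed, and so did many more genes of all kinds. In MGE KO cultures 7 of 30 members rose and 0 fell, against 4.84% and 12.3% of all genes (17.1% in either direction). In MGE WT cultures 9 of 30 rose and 1 fell, against 9.53% and 15.7% (25.3% in either direction). In CTX KO cultures 10 rose and 1 fell, against 11.3% and 24.9% (36.2% in either direction). In CTX WT cultures 10 rose and 1 fell, against 10.5% and 24.8% (35.2% in either direction). The median change of the members was 0.10, 0.23, 0.30 and 0.26 in MGE KO, MGE WT, CTX KO and CTX WT cultures, where the median over all genes was -0.07, -0.05, -0.11 and -0.10. Leaving out 1 array moved the 7 called members of MGE KO cultures to 3 or 4, each array having this effect. The 10 of MGE WT became 6 without replicate 2 at 0 h, the 11 of CTX KO became 6 without replicate 1 at 0 h and 7 without replicate 2 at 6 h, and the 11 of CTX WT became 7 without replicate 1 at 0 h. Sqle, Cyp51 and Sc5d were called in MGE KO cultures in all 4 such fits, and Pmvk, Idi1, Cyp51, Sc5d, Insig2 and Stard4 in both CTX genotypes.

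Among the mevalonate enzymes, Idi1 was the one called at 6 h in all 4 kinds of culture. Its change was 0.74 ± 0.19 in MGE KO (lost in 3 of the 4 fits without 1 array, at 0.65 to 0.82), 1.08 ± 0.19 in MGE WT, 0.93 ± 0.19 in CTX KO and 0.90 ± 0.19 in CTX WT cultures. Pmvk, which phosphorylates mevalonate a second time, rose in CTX cultures, where it was 13.20 and 13.11 at 6 h against 11.97 and 11.88 at 0 h in KO, and 13.11 and 13.26 at 6 h against 12.10 and 12.13 at 0 h in WT. Its CTX arrays at 6 h lay above all its other arrays. The change was 1.22 ± 0.12 in CTX KO (adjusted p = 4.5e-06) and 1.07 ± 0.12 in CTX WT cultures, 2.10-fold (adjusted p = 1.6e-05). In MGE cultures the change in Pmvk was 0.01 ± 0.12 in KO and -0.05 ± 0.12 in WT, and it did not pass. The brightest probe set of Hmgcs1 had 0.06 to 0.15 at 6 h in the 4 kinds of culture without a call, while its dimmest rose by 1.22 in MGE KO, 1.35 in MGE WT, 1.74 in CTX KO and 1.90 in CTX WT cultures (SE 0.15). Fdps, which makes farnesyl diphosphate, had 0.37 to 0.48 without a call (in CTX KO cultures it was called with the replicate number as a block, adjusted p = 0.038), and Mvk and Mvd, a mevalonate kinase and decarboxylase, had -0.63 to -0.08.

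Of the 10 sterol branch enzymes, 5 rose in MGE KO and 5 in MGE WT cultures, and 4 rose and 1 fell in each CTX genotype. Of all genes 4.84% rose in MGE KO and 9.53% in MGE WT cultures. In CTX cultures 11.3% rose and 24.9% fell in KO, and 10.5% rose and 24.8% fell in WT. Sc5d had the largest change of all members at 6 h in all 4: 1.61 ± 0.13 in MGE KO, 1.51 ± 0.13 in MGE WT, 1.65 ± 0.13 in CTX KO and 1.54 ± 0.13 in CTX WT cultures, with adjusted p from 3.8e-07 to 3.5e-06. In CTX KO cultures it read 10.87 and 10.90 at 0 h, then 11.37 and 11.34 at 1 h, then 12.52 and 12.55 at 6 h. In CTX WT cultures it read 10.83 and 11.22 at 0 h, then 11.33 and 11.59 at 1 h, then 12.48 and 12.64 at 6 h. As in MGE cultures, the 3 times did not overlap. This rests on the brightest of 3 probe sets of Sc5d. The other 2 had -0.20 ± 0.48 and -0.11 ± 0.37 in CTX WT and 1.31 ± 0.48 and 0.52 ± 0.37 in MGE WT cultures at 6 h, with none called.

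Cyp51 and Sqle were also called in all 4 kinds of culture. Cyp51 was 13.40 and 13.38 at 6 h against 12.55 and 12.52 at 0 h in MGE KO, and 13.40 and 13.39 against 12.51 and 12.66 in MGE WT cultures, with no overlap between the times. Its changes were 0.86 ± 0.11 in MGE KO, 0.81 ± 0.11 in MGE WT, 0.67 ± 0.11 in CTX KO and 0.70 ± 0.11 in CTX WT cultures, and its 2 other probe sets were called in the same direction in both WT cultures at 6 h. Sqle changed by 0.68 ± 0.13, 0.73 ± 0.13, 0.53 ± 0.13 and 0.49 ± 0.13 in the same order. Its CTX calls were lost without replicate 1 of CTX WT at 0 h (0.29) or replicate 2 of CTX WT at 6 h (0.43), and without replicate 1 of CTX KO at 0 h or replicate 2 of CTX KO at 6 h (0.46 each).

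Lss and Hsd17b7 rose in MGE and did not pass in CTX cultures at 6 h. Lss changed by 0.89 ± 0.23 in MGE KO and 0.91 ± 0.23 in MGE WT, against 0.55 ± 0.23 in CTX KO and 0.48 ± 0.23 in CTX WT cultures. The MGE minus CTX difference did not pass for Lss, at 0.39 ± 0.23 (adjusted p = 0.24), and its 2 other probe sets rose in CTX WT cultures by 1.21 ± 0.26 and 1.15 ± 0.24 (adjusted p = 0.0026 and 0.0024). Hsd17b7 changed by 0.58 ± 0.18 in MGE KO and 0.77 ± 0.18 in MGE WT, against 0.30 ± 0.18 in CTX KO and 0.34 ± 0.18 in CTX WT cultures, and its difference was 0.35 ± 0.18 (adjusted p = 0.17). With the replicate number as a block, Lss was called in CTX KO (adjusted p = 0.026) and CTX WT cultures (adjusted p = 0.047), and Hsd17b7 in CTX WT cultures (adjusted p = 0.036). All 4 arrays behind the MGE KO calls mattered for Lss and Hsd17b7, since leaving out any of them ended both calls, with Lss at 0.82 to 0.96 and Hsd17b7 at 0.43 to 0.73. In MGE WT cultures Lss was lost without replicate 2 at 0 h (0.75) or replicate 1 at 6 h (0.94), and Hsd17b7 without replicate 2 at 6 h (0.58). With the mean of their probe sets both were called in CTX cultures too, Lss at 0.99 in KO and 0.95 in WT and Hsd17b7 at 0.66 in KO and 0.83 in WT.

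Ebp, a sterol isomerase, rose at 6 h in CTX cultures. It was 10.43 and 10.51 at 6 h against 9.66 and 9.85 at 0 h in CTX KO, and 10.43 and 11.07 at 6 h against 9.63 and 10.23 at 0 h in CTX WT cultures, so the times did not overlap within a genotype. The change was 0.72 ± 0.23 in CTX KO (adjusted p = 0.025) and 0.82 ± 0.23 in CTX WT cultures (adjusted p = 0.013). It was lost without any 1 of the 4 CTX KO arrays (0.62 to 0.81), and without replicate 1 of CTX WT at 0 h (0.52) or replicate 2 at 6 h (0.50). In MGE cultures Ebp had -0.31 ± 0.23 in KO and -0.29 ± 0.23 in WT. Dhcr7, which makes cholesterol in the last step of its branch, fell in CTX cultures, with changes of -0.36 in KO and -0.40 in WT (SE 0.13, adjusted p = 0.037 and 0.023). Leaving out 1 array ended this call in 3 of 4 fits in KO (-0.39 to -0.27) and, without replicate 2 at 0 h (-0.24) or replicate 1 at 6 h (-0.30), in WT. Tm7sf2, Nsdhl and Fdft1 were not called at 6 h against 0 h in any culture, although with the replicate number as a block Nsdhl was called in CTX KO cultures at -0.50 (adjusted p = 0.041).

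Among the regulators, Insig2 rose in all 4 kinds of culture by its chosen probe set, by 0.37 ± 0.12 in MGE KO, 0.50 ± 0.12 in MGE WT, 0.65 ± 0.12 in CTX KO and 0.68 ± 0.12 in CTX WT cultures. Its 2 other probe sets had the opposite sign in CTX cultures, at -0.39 and -0.45 in CTX KO and -0.44 and -0.43 in CTX WT, and with the mean of the 3 probe sets the change was -0.06 in CTX KO and -0.07 in CTX WT cultures. The direction for Insig2 in CTX cultures thus depends on the probe set. Its MGE KO call was lost in all 4 fits without 1 array (0.35 to 0.40). Srebf2 rose in CTX KO by 0.34 ± 0.12 (adjusted p = 0.035) and in CTX WT by 0.32 ± 0.12 (adjusted p = 0.049), and its second probe set gave 1.12 ± 0.19 and 0.99 ± 0.19. The KO call was lost in 3 of 4 fits without 1 array (0.21 to 0.41), and the WT call without replicate 1 at 0 h (0.20) or replicate 2 at 6 h (0.22). In MGE cultures Srebf2 had 0.23 ± 0.12 in KO and 0.30 ± 0.12 in WT and did not pass. Insig1 rose in MGE WT cultures, where it was 12.87 and 12.89 at 6 h against 12.42 and 11.50 at 0 h, by 0.92 ± 0.21 (adjusted p = 0.0058). Without replicate 2 of MGE WT at 0 h this was 0.46 (adjusted p = 0.063), and without replicate 1 it was 1.38. Scap fell in MGE WT cultures, with a change of -0.50 ± 0.16 (adjusted p = 0.037), which was -0.29 without replicate 2 of MGE WT at 0 h (adjusted p = 0.36) and also lost without either array at 6 h (-0.56 and -0.44). Srebf1 had -0.51 to -0.17 with an SE of 0.43 and was not called.

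Stard4 was the second largest change in CTX cultures at 6 h. It read 11.75 and 12.09 at 0 h, then 12.66 and 12.65 at 1 h, then 13.27 and 13.51 at 6 h in CTX KO cultures. In CTX WT cultures it read 11.64 and 12.33 at 0 h, then 12.75 and 12.83 at 1 h, then 13.31 and 13.64 at 6 h. The 3 times did not overlap, and each later time was higher. The change at 6 h was 1.47 ± 0.24 in CTX KO and 1.49 ± 0.24 in CTX WT cultures, 2.80-fold, with an adjusted p of 0.00022 in both. In MGE cultures it was 0.70 ± 0.24 in KO (adjusted p = 0.057) and 0.90 ± 0.24 in WT (adjusted p = 0.014). The MGE WT call was lost without replicate 2 of MGE WT at 0 h (0.87) or replicate 2 at 6 h (0.51).

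Of the 7 fatty acid enzymes, Elovl6, which lengthens saturated fatty acids, was the one called at 6 h, by 0.53 ± 0.15 in CTX KO (adjusted p = 0.012) and 0.48 ± 0.15 in CTX WT cultures (adjusted p = 0.022). It was 12.70 and 12.80 at 6 h against 12.11 and 12.33 at 0 h in CTX KO, and 12.79 and 12.90 against 12.16 and 12.56 in CTX WT cultures, without overlap. Without replicate 1 of CTX WT at 0 h or replicate 2 at 6 h the WT change was 0.28 and 0.42, and without replicate 1 of CTX KO at 0 h or replicate 2 at 6 h the KO change was 0.42 and 0.48, all without a call. Acly, which makes cytosolic acetyl-CoA, Fasn, the fatty acid synthase, the desaturases Scd1, Scd2, Fads1 and Fads2, and the phosphatidate phosphatase Lpin1 had 6 h changes between -0.18 and 0.37 and were not called. With the replicate number as a block Scd1 was called in CTX KO cultures at 0.37 (adjusted p = 0.034). A second, dimmer probe set of Scd1 rose by 1.6 ± 0.33 in CTX KO (adjusted p = 0.002) and 1.25 ± 0.33 in CTX WT cultures (adjusted p = 0.011).

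**Figure D3:**
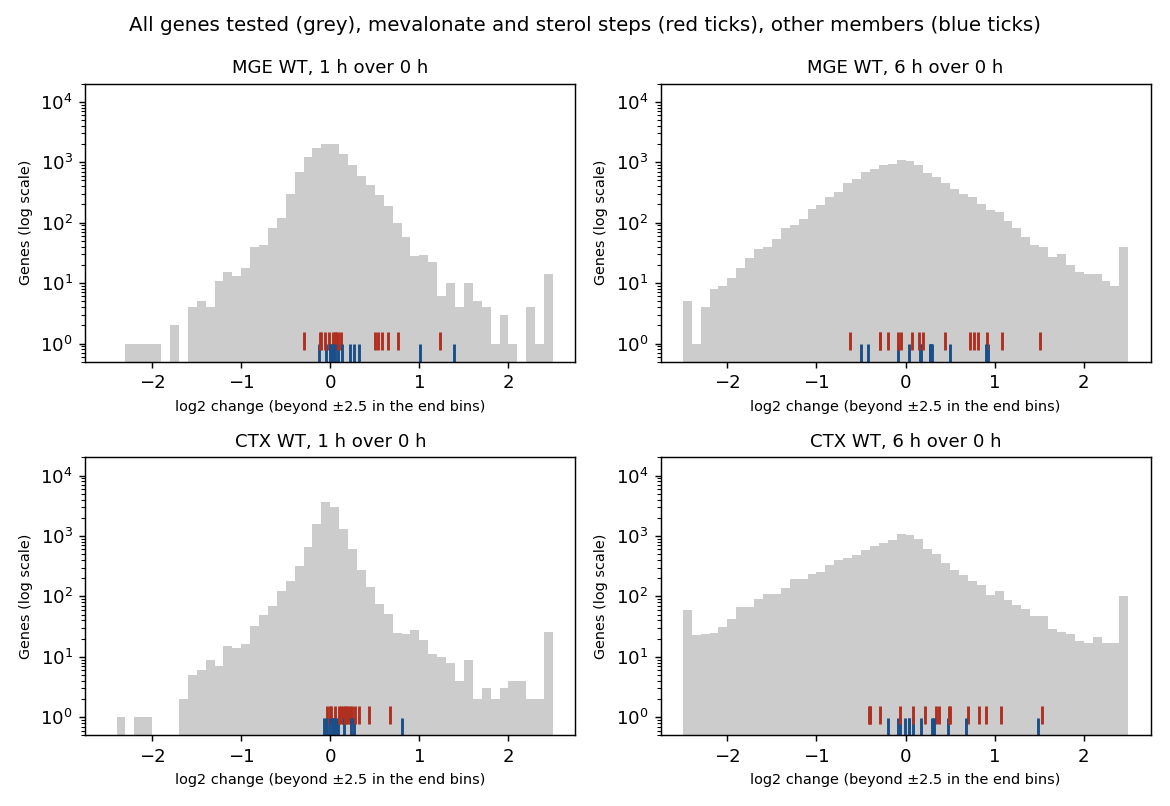
Distribution of log2 changes over 0 h (horizontal axis) of all 12378 genes tested (grey bars, number of genes on a log axis) in MGE WT and CTX WT cultures at 1 h and 6 h, with a tick for each of the 30 members. The ticks of the mevalonate and sterol steps reach 1.24 in MGE WT cultures at 1 h and 1.54 in CTX WT cultures at 6 h, and most members lie near 0.

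Between 1 h and 6 h, with the genotypes averaged, 4 of 30 rose and 1 fell from the 1 h level in MGE cultures, against 8.03% and 17.4% of all genes. Sc5d (0.76 ± 0.09), Cyp51 (0.30 ± 0.08), Insig2 (0.29 ± 0.08) and Srebf2 (0.27 ± 0.08) rose and Stard4 fell. The other 2 probe sets of Sc5d had 0.08 and -0.48 without a call, and the mean of the 3 had 0.12 (adjusted p = 0.71). In CTX cultures 10 rose and 3 fell, against 14.1% and 31% of all genes. Sc5d (1.14 ± 0.09), Pmvk (0.89 ± 0.09), Stard4 (0.71 ± 0.17), Ebp (0.67 ± 0.16) and Elovl6 (0.62 ± 0.11) rose most, and Mvd (-0.51 ± 0.19), Nsdhl (-0.47 ± 0.18) and Dhcr7 (-0.33 ± 0.09) fell. Here too the rise of Sc5d rests on its brightest probe set, with -0.05 and 0.09 by the others and 0.39 by the mean (adjusted p = 0.11). For Insig2 in CTX cultures the other 2 probe sets fell in this comparison, with changes of -0.56 and -0.63. The MGE call for Stard4 was lost without replicate 1 of MGE WT at 6 h (-0.39) and without 3 other arrays (-0.57 to -0.51), that for Srebf2 without 6 of the 8 arrays (0.23 to 0.28) and that for Insig2 without 3 (0.28 to 0.29). The CTX calls for Mvd and Nsdhl were lost without 6 and 5 of the 8 arrays, at -0.55 to -0.34 and -0.54 to -0.29, and that for Fdft1 without 7 (0.18 to 0.25). With the replicate number as a block Fdps (0.31), Lss (0.33) and Scd1 (0.28) were called in CTX cultures too. The MGE minus CTX difference in this change was not tested.

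The test of the MGE minus CTX difference in the 6 h response, over both genotypes, called 3 of 30 members, all lower in MGE, against 9.35% of all genes that were lower and 16% that were higher (25.3% in either direction). Pmvk differed by -1.17 ± 0.12 (adjusted p = 2.5e-05) and Ebp by -1.07 ± 0.23 (adjusted p = 0.0041). Both kept the call in all 16 fits that left out 1 array. Stard4 differed by -0.68 ± 0.24 (adjusted p = 0.049), and its call was lost in 11 of those 16 fits, at -0.75 to -0.48. The other probe sets of Stard4 gave -0.55 ± 0.23 and -0.51 ± 0.31 for this difference, without a call. For the remaining 27 members the difference did not pass, with estimates between -0.31 and 0.53. With the replicate number as a block 6 members were called. The others were Nsdhl at 0.53 (adjusted p = 0.043), Hsd17b7 at 0.35 (adjusted p = 0.038) and Insig2 at -0.23 (adjusted p = 0.049). The share of all genes called in that block fit is not given here. Without replicate 1 of MGE WT at 0 h, Insig1 was called in this test at 0.56 (adjusted p = 0.0048), and without replicate 2 of CTX WT at 6 h, Nsdhl at 0.71 (adjusted p = 0.044).

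**Figure D4:**
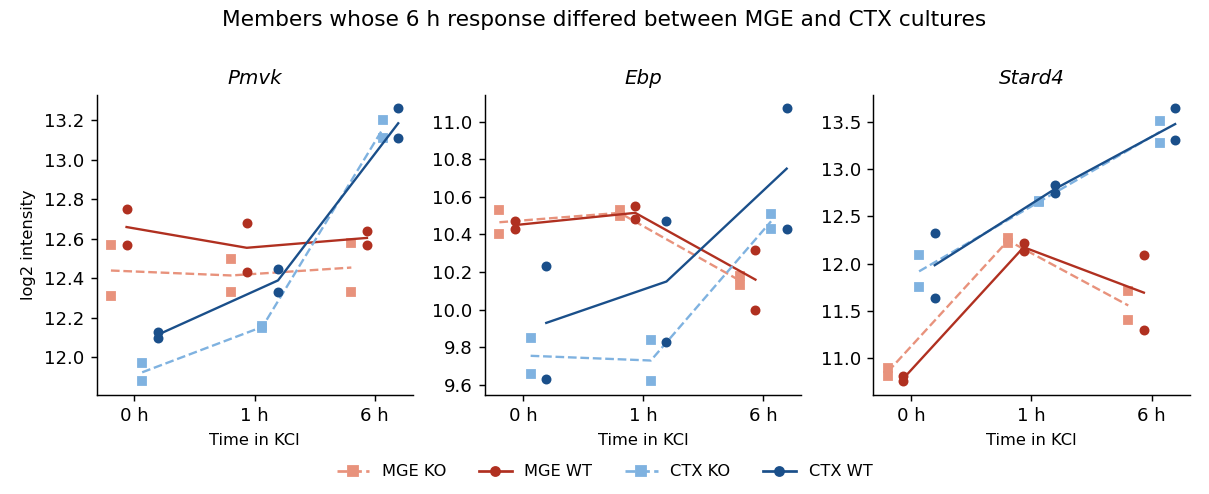
Log2 intensity (vertical axis) by time in KCl (horizontal axis, evenly spaced) of Pmvk, Ebp and Stard4, with 1 point per array and lines through the means of 2 arrays. The CTX arrays of Pmvk rise to 13.11 to 13.26 at 6 h, while its MGE arrays stay between 12.31 and 12.75 at all times.

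Loss of Npas4 was not accompanied by a called change in any member. At 0 h and 6 h in each cell type, KO minus WT passed for 0 of 30 members, and so did the KO minus WT difference in the 1 h and 6 h responses. Over all genes these 8 comparisons called between 0 and 6 genes. The shares were 0.0323% in MGE and 0.0485% in CTX cultures at 6 h, 0% in both at 0 h, and 0% to 0.00808% for the differences in response. At an unadjusted p under 0.05 there were 5 members in MGE cultures at 0 h and 0 in each of the other 7 comparisons. The share of all genes at that unadjusted p is not given here, so the 5 are not a result about the members. Those 5 were higher in MGE KO than in MGE WT cultures: Insig1 by 0.72 ± 0.21, Scd1 by 0.60 ± 0.19, Idi1 by 0.52 ± 0.19, Lpin1 by 0.35 ± 0.15 and Scd2 by 0.28 ± 0.11, each with an adjusted p of 0.23. They involve the MGE WT group at 0 h whose 2 arrays lay apart. Without its replicate 1, 4 members were called, Insig1 at 1.18, Idi1 at 0.81, Lpin1 at 0.52 and Scap at -0.53, together with 31.3% of all genes, and without its replicate 2, 0 members and 0.00808% of all genes were called. Without replicate 1 the KO minus WT difference in the 6 h response also passed for Insig1, at -1.0 (adjusted p = 0.015). For the main risers the KO minus WT difference in the 6 h response was 0.10 ± 0.18 for Sc5d, -0.34 ± 0.27 for Idi1 and -0.20 ± 0.34 for Stard4 in MGE cultures, and 0.11 ± 0.18, 0.03 ± 0.27 and -0.01 ± 0.34 in CTX cultures. With 2 arrays a group these SEs leave differences of this size undetectable, and a missing call does not show equal responses.

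At 0 h most sterol enzymes were lower in MGE than in CTX cultures. In KO cultures 14 of 30 members were lower in MGE and 5 higher, against 20.4% and 26.6% of all genes (47% in either direction). In WT cultures 18 were lower and 4 higher, against 29.5% and 34.7% (64.2% in either direction). The median difference of the members was -0.31 in KO and -0.34 in WT cultures, where that of all genes was 0.07 and 0.11. Mixed cultures were measured in bulk, so fewer cells of a type and less RNA per cell cannot be told apart.

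**Figure D5:**
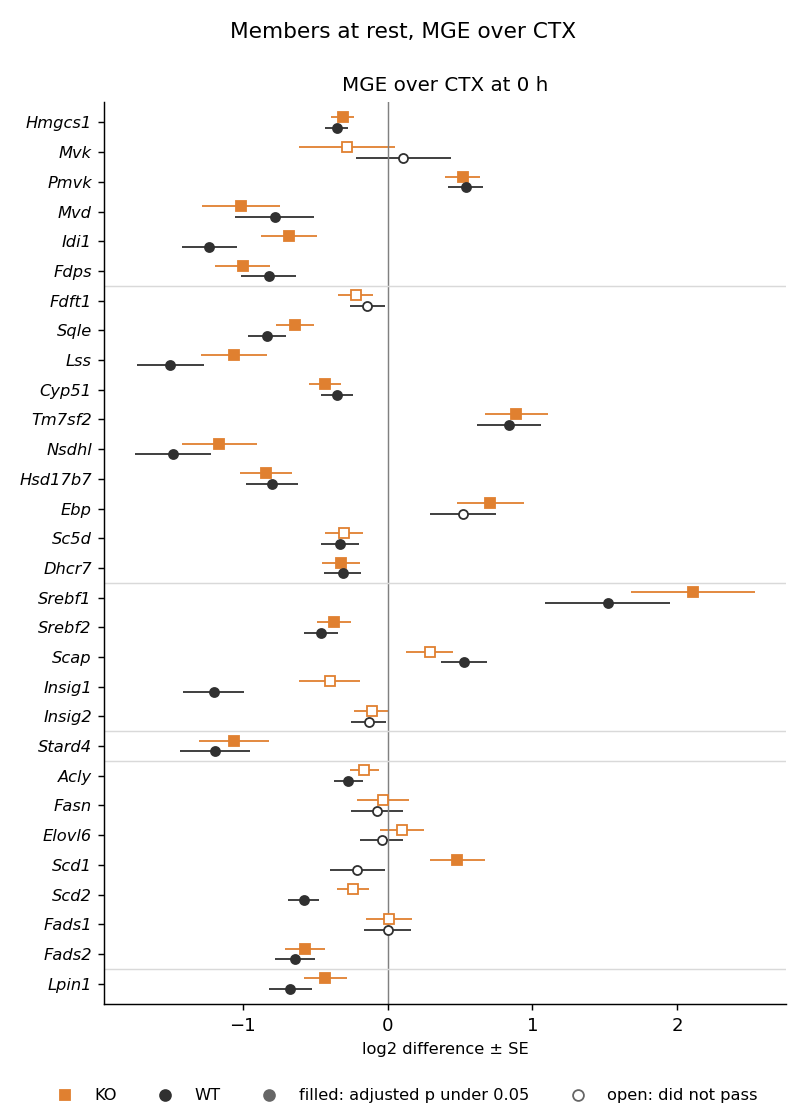
Log2 difference ± SE (horizontal axis), MGE over CTX at 0 h, of each member in KO (squares) and WT (circles) cultures, with filled symbols where the adjusted p was under 0.05. Lss, Nsdhl and Stard4 lie between -1.5 and -1.06, and Srebf1 lies highest at 2.11 in KO and 1.52 in WT.

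Of the mevalonate enzymes, 4 of 6 were lower in MGE in each genotype: Hmgcs1, Mvd, Idi1 and Fdps. Of all genes 20.4% were lower in KO and 29.5% in WT cultures. Fdps was 12.24 and 11.94 in MGE KO against 12.97 and 13.20 in CTX KO cultures. In WT it was 12.20 and 12.39 in MGE against 12.89 and 13.34 in CTX cultures, without overlap in either genotype. Over all genes the MGE arrays lay below the CTX arrays for 37% in KO and 37.1% in WT. The difference for Fdps was -1.0 ± 0.19 in KO (adjusted p = 0.00081) and -0.82 ± 0.19 in WT (adjusted p = 0.002). Pmvk was higher in MGE, by 0.52 ± 0.12 in KO and 0.54 ± 0.12 in WT. For Idi1 the KO difference was -0.68 ± 0.19, but its other probe set gave -0.12 ± 0.19 without a call. The mean of its probe sets gave -0.40 in KO (adjusted p = 0.082, limma). Without replicate 1 of MGE KO or replicate 2 of CTX KO, Idi1 had -0.59. Mvd in KO had -0.70 without replicate 2 of MGE KO and -0.92 without replicate 2 of CTX KO. Its other probe set gave -1.24 in KO with a call and -0.77 in WT without 1.

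In the sterol branch 6 of 10 were lower in MGE in KO cultures and 7 in WT cultures, against 20.4% and 29.5% of all genes. Lss was 10.67 and 10.53 in MGE KO against 11.54 and 11.78 in CTX KO cultures, and 10.44 and 10.12 in MGE WT against 11.52 and 12.05 in CTX WT cultures. The MGE arrays lay below all the CTX arrays. The difference was -1.06 ± 0.23 in KO (adjusted p = 0.0019) and -1.5 ± 0.23 in WT, 2.83-fold lower (adjusted p = 8.1e-05), although the 2 other probe sets of Lss gave 0.01 ± 0.26 and -0.08 ± 0.24 in WT. Nsdhl, a decarboxylating sterol dehydrogenase, was lower, with differences of -1.16 in KO and -1.48 in WT cultures (SE 0.26). For Hsd17b7 they were -0.84 and -0.80 (SE 0.18), with -4.48, -1.13 and 0.22 by its 3 other probe sets in WT. Tm7sf2, a sterol reductase, was higher in MGE by 0.89 ± 0.22 in KO and 0.84 ± 0.22 in WT. Ebp was higher in MGE by 0.71 ± 0.23 in KO (adjusted p = 0.021) and had 0.52 ± 0.23 in WT without a call (adjusted p = 0.062).

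Among regulators Srebf1 went the other way from Srebf2. Srebf1 was 9.10 and 9.80 in MGE KO against 7.65 and 7.03 in CTX KO cultures, and 8.51 and 9.68 in MGE WT against 7.48 and 7.69 in CTX WT cultures, without overlap. It was higher by 2.11 ± 0.43 in KO, 4.32-fold (adjusted p = 0.0013), and by 1.52 ± 0.43 in WT cultures (adjusted p = 0.0074), the second of which was 0.93 without replicate 2 of MGE WT (adjusted p = 0.13) and 2.10 without replicate 1. Srebf2 was lower, at -0.37 in KO and -0.46 in WT (SE 0.12), and so was Stard4, at -1.06 in KO and -1.19 in WT (SE 0.24). Of the 7 fatty acid enzymes, Fads2, a desaturase of polyunsaturated fatty acids, was lower in both genotypes, at -0.57 in KO and -0.64 in WT (SE 0.14), while Scd2 and Acly were lower in WT and Scd1 was higher in KO. The 19 called members in KO became 10 without replicate 2 of CTX KO and 12 without replicate 1 of MGE KO at 0 h, and Dhcr7 and Scd1 lost their calls in all 4 fits without 1 array. In WT the 22 became 16 to 22. Without replicate 2 of MGE WT, calls were lost for Dhcr7 (-0.33), Srebf1 (0.93), Scap (0.32) and Acly (-0.21). Without replicate 1 of MGE WT they were lost for Mvd (-0.57), Cyp51 (-0.27), Sc5d (-0.24) and Dhcr7 (-0.29). Without replicate 2 of CTX WT they were lost for Mvd (-0.48), Cyp51 (-0.18), Sc5d (-0.14), Dhcr7 (-0.16), Srebf2 (-0.34), Scap (0.46) and Acly (-0.14). Insig1, which was lower by the WT fit at -1.20 ± 0.21, had -0.74 without replicate 2 of MGE WT and -1.65 without replicate 1. Other probe sets of some members gave larger WT differences, all called. They were -1.47 and -1.03 for Cyp51, -3.15 and -1.49 for Sc5d, -1.56 for Srebf2, and -1.75 and -2.55 for Acly. The remaining probe sets of Acly, below the median on all arrays, had -0.19 to 0.26 without a call. Those of Mvd and Scap had -0.77 and 0.32, also without a call.

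Markers of several cell types differed between MGE and CTX cultures at 0 h. The summed intensities of vascular markers overlapped in both genotypes, and those of astrocyte markers in WT. Of 9 interneuron markers, 9 were above the array median in all groups, with a summed intensity at 0 h of 65500 to 65700 in MGE KO and 56400 to 65200 in MGE WT, against 10900 to 11000 in CTX KO and 8320 to 12500 in CTX WT cultures. The 6 excitatory markers had 0 to 1 above the median in MGE and 6 in CTX arrays, and Slc17a7, a vesicular glutamate transporter, averaged 5.27 in MGE KO and 5.45 in MGE WT against 10.98 in CTX KO and 11.37 in CTX WT cultures at 0 h. Progenitor markers, 7 genes, summed to 17500 to 22400 in MGE KO and 15900 to 19800 in MGE WT, against 5500 to 9730 in CTX KO and 6540 to 9230 in CTX WT cultures at 0 h. For 8 oligodendrocyte lineage markers the sums were 5160 to 5270 in MGE KO and 4770 to 6310 in MGE WT, against 2040 to 2450 in CTX KO and 2420 to 2450 in CTX WT cultures. For 9 astrocyte markers they were 16600 to 21400 in MGE KO and 12900 to 15900 in MGE WT, against 7460 to 13600 in CTX KO and 10800 to 14300 in CTX WT cultures. At 6 h in CTX cultures the progenitor sum was 9660 to 14300 in KO, which overlaps its 0 h range, and 11400 to 12300 in WT, which lies above its 0 h range. The astrocyte sum was then 8980 to 15600 in CTX KO and 13800 to 15200 in CTX WT cultures, overlapping 0 h in both. The astrocyte markers did not move as 1. Gja1, a connexin, averaged 10.66 at 6 h against 10.06 at 0 h in CTX KO and 11.01 against 10.29 in CTX WT cultures. Slc1a3 and Aldh1l1 were also higher at 6 h in both. Aldoc averaged 9.41 at 6 h against 9.46 at 0 h in CTX KO and 9.94 against 9.97 in CTX WT cultures. Slc1a2 averaged 10.23 at both times in CTX KO, and 10.63 against 10.54 in CTX WT cultures. Between cell types at 0 h they were mixed too. In WT cultures Aldh1l1 averaged 10.82 in MGE against 9.26 in CTX, and Gja1 10.97 against 10.29. The astrocyte marker Fabp7 averaged 12.03 in MGE WT against 12.36 in CTX WT, and Aldoc 9.74 against 9.97. In KO cultures Fabp7 and Aldoc were higher in MGE, while Gfap and Slc1a2 were lower. Microglial markers, 8 genes, summed to 1180 to 2280 in MGE KO and 1820 to 2460 in MGE WT, against 826 to 1110 in CTX KO and 742 to 945 in CTX WT cultures at 0 h, and 8 vascular markers to 1290 to 3250 and 1430 to 2000, against 1000 to 6000 and 999 to 3630. The part of these cells in the members' values was not tested.

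Other genes of the same pathways were counted from lists drawn up with earlier results known. Of 5 further sterol synthesis genes tested, 1 rose at 1 h in MGE KO and in MGE WT cultures, against 0.323% and 0.388% of all genes. It was Msmo1, the sterol C4 methyl oxidase, with 0.76 ± 0.15 and 0.82 ± 0.15. At 6 h Msmo1 rose by 0.65 in MGE KO, 0.80 in MGE WT, 0.99 in CTX KO and 0.87 in CTX WT cultures (SE 0.15). At 6 h 1 of the 5 fell in CTX cultures, Dhdds, a dolichol synthase subunit, against 24.9% of all genes in KO and 24.8% in WT. Of 10 genes listed as linked to SREBP, Mylip, a ubiquitin ligase for lipoprotein receptors, rose at 1 h in MGE cultures. Its change was 2.12 ± 0.27 in MGE KO and 1.57 ± 0.27 in MGE WT cultures. Its 1 h response was 1.65 ± 0.27 higher in MGE than in CTX cultures (adjusted p = 0.02). Mylip started lower in MGE cultures, with MGE minus CTX differences at 0 h of -2.90 ± 0.27 in KO and -2.69 ± 0.27 in WT. At 6 h 1 of the 10 rose and 1 fell in MGE KO, and 1 and 1 in MGE WT cultures. In CTX cultures 1 rose and 2 fell in KO, and 1 rose and 3 fell in WT. Of all genes 4.84% rose and 12.3% fell in MGE KO, and 9.53% and 15.7% in MGE WT cultures. In CTX KO cultures 11.3% of all genes rose and 24.9% fell, and in CTX WT 10.5% and 24.8%. In MGE cultures Mylip rose by 1.6 in KO and 1.20 in WT (SE 0.27), and in CTX cultures Tmem97 rose by 0.82 in KO and 1.00 in WT (SE 0.22). Gpam, the first acyltransferase of glycerolipid synthesis, fell in all 4, with changes of -0.86 in MGE KO, -0.89 in MGE WT, -1.69 in CTX KO and -1.62 in CTX WT cultures (SE 0.13). Mbtps1, the site-1 protease that cuts SREBPs, fell in CTX KO (-1.64) and CTX WT cultures (-1.57, SE 0.21), and Npc1 in CTX WT cultures (-0.53 ± 0.16).

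Of 23 further fatty acid and glycerolipid genes, 0 were called at 1 h in any single culture. At 6 h 1 rose and 2 fell in MGE KO, and 4 and 1 in MGE WT cultures. In CTX cultures 4 rose and 2 fell in KO, and 4 rose and 1 fell in WT. Of all genes 4.84% rose and 12.3% fell in MGE KO, and 9.53% and 15.7% in MGE WT cultures. In CTX KO cultures 11.3% of all genes rose and 24.9% fell, and in CTX WT 10.5% and 24.8%. Hsd17b12, a reductase of fatty acid elongation, rose in all 4, by 0.55 to 0.71 (SE 0.10), and Hacd2, a dehydratase of the same cycle, rose in CTX KO by 1.13 ± 0.17 and in CTX WT cultures by 1.24 ± 0.17. Of 10 sterol export and turnover genes, 1 rose and 1 fell in MGE KO, 1 and 2 in MGE WT, 0 and 3 in CTX KO, and 1 and 3 in CTX WT cultures at 6 h, against the same shares. Abcg1, a sterol exporter, fell in all 4, with changes of -1.03, -0.92, -2.01 and -1.74 (SE 0.26), and Abcg4, its close relative, fell in MGE WT, CTX KO and CTX WT cultures, with changes of -0.67, -1.19 and -1.24 (SE 0.20), and was not called in MGE KO cultures.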

How the data were processed

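RNA from 12 groups of cultures was measured with 2 Affymetrix mouse expression arrays per group (24 arrays). NuGEN Ovation V2 amplification started from 100 ng of RNA, per the labels' protocols. The values that the authors deposited are linear intensities, 1 for each probe set in each array, and the submitters' processing notes name RMA, with no version. RMA gives arrays a common distribution (array medians 115 to 121), which hides any change common to most genes. The sources used here do not give whether MGE and CTX arrays went through RMA as 1 set. The number of arrays limits the precision.

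Intensities were converted to log2. Of 45101 probe sets, 34958 named 1 gene in the platform annotation, 932 several and 9211 none. For each of 18194 genes the brightest probe set by mean was kept, and 12378 genes that exceeded their array's median on 2 or more arrays were tested (5816 were not). limma 3.58.1 in R 4.3.3 fitted 12 group means (12 residual and 2.408 prior degrees of freedom), with Benjamini-Hochberg adjustment, after checks on simulated data. All 31 members could be named, and other pathway genes as counts with the largest calls. The members and lists were chosen with earlier results of these data known. In 20 comparisons fixed from the labels, 91 member calls were made. Another 4 (1 h against 0 h and 6 h against 1 h, genotypes averaged) were added after seeing the data, with 28 calls. Alternatives were quantile normalization, no filter, the mean of a gene's probe sets, the replicate number as a block, each cell type fitted alone and leaving out each array. Deviations of same-numbered arrays from their group means correlated at -0.23 to 0.857 among MGE groups (median 0.612, over 0.1 in 13 of 15 pairs). Among CTX groups they correlated at 0.111 to 0.711 (median 0.369, over 0.1 in all 15 pairs), and between MGE and CTX groups at -0.385 to 0.199. The labels tie no number to a culture or litter, so the pairing in MGE and CTX cultures comes from the data alone. The reported fit left it out, and the fit with the replicate number as a block used it. Figures used matplotlib 3.10.9 in Python 3.11.15.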

Additional observations from a re-analysis of the deposited data

Results flagged for a closer look

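A test of the cell type difference in the 6 h response itself, over both genotypes, called 3 of 30 members, all with a lower response in MGE. Over all genes 9.35% were lower and 16% higher, so the count alone does not set the members apart. The MGE minus CTX difference was -1.17 ± 0.12 for Pmvk (adjusted p = 2.5e-05, limma), -1.07 ± 0.23 for Ebp (adjusted p = 0.0041) and -0.68 ± 0.24 for Stard4 (adjusted p = 0.049). Pmvk and Ebp have 1 single-symbol probe set each, so no second one bears on them. The other probe sets of Stard4 gave -0.55 ± 0.23 (adjusted p = 0.11) and -0.51 ± 0.31 (adjusted p = 0.28) for this difference. At 6 h in MGE cultures Pmvk changed by 0.01 in KO and -0.05 in WT, against 1.22 in CTX KO and 1.07 in CTX WT cultures. Ebp changed by -0.31 in MGE KO and -0.29 in MGE WT, against 0.72 in CTX KO and 0.82 in CTX WT cultures. Its MGE minus CTX difference at 0 h was 0.71 ± 0.23 in KO, with a call, and 0.52 ± 0.23 in WT, without a call. Stard4 changed by 0.70 in MGE KO and 0.90 in MGE WT, against 1.47 in CTX KO and 1.49 in CTX WT cultures. Groups of 2 arrays are too small for the search for single deviating arrays.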

How the results depend on the processing

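Of the 119 member calls, 113 kept direction and call under quantile normalization, 110 without the filter, 118 with the replicate block, 97 with the mean of a gene's probe sets and 57 of 75 with each cell type fitted alone. The mean of probe sets lost 19 calls and reversed 3, all Insig2: CTX KO at 6 h (-0.06), CTX WT at 6 h (-0.07) and CTX at 6 h against 1 h (-0.23). Leaving out 1 array kept 446 of 624 and lost 178, with none reversed. The cause was not tested, except that fits without an array or a cell type have fewer samples.

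Counts of members called moved by over 1.5 times as follows. With each cell type fitted alone, MGE KO at 1 h gave 2 (4 in the reported fit), MGE WT at 1 h 1 (4), CTX WT at 6 h 7 (11) and CTX at 1 h with genotypes averaged 1 (3). Quantile normalization gave 2 for MGE KO at 1 h, and the mean of probe sets 2 for MGE at 6 h against 1 h (5).

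With the replicate number as a block, 90 of 91 planned member calls were kept and 20 gained. The share of all genes called in the block fit is not given here, so these gains are not set against a background. Insig1 in MGE WT at 1 h was lost (adjusted p = 0.067), the 6 h MGE minus CTX difference gave 6 members (3) and MGE at 6 h against 1 h gave 9 (5), with Ebp, Dhcr7, Srebf1 and Elovl6 added.

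Leaving out 1 array gave 0 to 1 member in MGE KO and 0 to 6 in MGE WT at 1 h, 3 to 4 in MGE KO and 6 to 11 in MGE WT at 6 h, 6 to 9 in CTX KO and 7 to 11 in CTX WT at 6 h, 10 to 15 in KO and 16 to 22 in WT for MGE against CTX at 0 h, 2 to 3 for the 6 h and 0 to 1 for the 1 h MGE minus CTX difference, 0 to 4 for KO against WT in MGE at 0 h, and 0 to 1 for the KO minus WT difference at 6 h in MGE. With genotypes averaged it gave 4 to 8 in MGE and 0 to 4 in CTX at 1 h, and 3 to 5 in MGE and 10 to 13 in CTX at 6 h against 1 h. Where it left 1 array in a group, that array was assumed to vary like the other groups. The Stard4 difference at 6 h also lost its call without the filter (adjusted p = 0.06) and with the mean of probe sets (-0.58, adjusted p = 0.076).

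Of the other probe sets of called members, 82 were also called in the same direction, 49 had the same direction without a call, 22 the opposite direction without a call and 2 were called in the opposite direction.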
